A study of Mus musculus with 28 samples.

Results

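The cytosolic ribosomal protein genes were taken from the table of read counts by symbol: every protein-coding mouse gene named Rpl or Rps with a digit, or Rplp0, Rplp1, Rplp2 or Rpsa, leaving out the Rps6k kinases and symbols with -ps. The rule found 86 of the 54532 genes of the table, of which 51 carry a large subunit name, 33 a small subunit name and 2 (Rpl7l1 and Rps19bp1) are not structural subunits of the ribosome. The rule used names only and no measured value.

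The study measured RNA of bone marrow-derived macrophages (BMDMs), macrophages grown from mouse bone marrow with M-CSF, by bulk RNA sequencing. There were 28 cultures. Control cultures received PBS, VWF cultures 10 µg/ml of plasma-derived von Willebrand factor (VWF), the adhesive glycoprotein of primary haemostasis, and LPS cultures 100 ng/ml of bacterial lipopolysaccharide, the ligand of Toll-like receptor 4. Each condition was sampled at 3.5 h and at 16 h, with 5 control, 5 VWF and 4 LPS cultures at each time, all in medium with 1 mM CaCl2. The labels call the cultures biological replicates but do not say whether they came from separate animals, so p values measure the spread between these cultures.

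Ribosomal proteins of the large (60S) and small (40S) subunits are needed in equal numbers, and their mRNAs are among the most abundant of a cell. In mammals these mRNAs commonly begin with a cytosine followed by a run of pyrimidines, the 5′ terminal oligopyrimidine (TOP) element, through which the kinase mTORC1 and the binding protein LARP1 set their translation and stability. Macrophages activated by LPS reset both transcription and translation, and only the mRNA amount is seen by these data.

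Windows around the transcription start are shown for a few members, to let the presence or absence of a pyrimidine run be seen, from 30 bases before to 20 bases after the start that RefSeq gives on GRCm38.p6, 5′ to 3′ on the gene's strand. Capitals mark the longest unbroken run of C and T that begins or lies between 10 bases before and 20 bases after the start. Rpl27a (chr7:109519165-109519214, plus strand), Rpl35 (chr2:39005112-39005161, minus strand), Rpl13a (chr7:45128726-45128775, minus strand), Rps6 (chr4:86857348-86857397, minus strand) and Rplp2 (chr7:141447621-141447670, plus strand) have long runs, Rpl27a and Rpl35 being shown for the length of theirs alone. Rpl5 (chr5:107900498-107900547, plus strand) and Rpl7l1 (chr17:46782637-46782686, minus strand) have short ones in that stretch. Both also hold longer runs of C and T farther upstream in the printed window, left in lower case.
Rpl27a: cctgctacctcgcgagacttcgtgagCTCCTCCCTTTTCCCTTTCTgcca
Rpl35: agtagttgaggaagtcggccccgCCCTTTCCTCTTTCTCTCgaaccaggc
Rpl13a: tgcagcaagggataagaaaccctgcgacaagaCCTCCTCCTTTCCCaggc
Rps6: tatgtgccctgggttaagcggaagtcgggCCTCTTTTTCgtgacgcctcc
Rplp2: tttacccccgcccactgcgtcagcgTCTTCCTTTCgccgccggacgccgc
Rpl5: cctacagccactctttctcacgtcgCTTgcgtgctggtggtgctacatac
Rpl7l1: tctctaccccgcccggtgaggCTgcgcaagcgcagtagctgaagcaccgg

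RefSeq promoters were matched for 66 of the 86 members, with 78 promoters because some genes have several. A run of at least 8 C or T in that stretch was present in 24 of the 78 (30.8%), against 11.2% of all 32851 RefSeq promoters. The letters CTTTCC on the gene's strand in the same stretch occurred in 14.1% of the members' promoters and in 1.28% of all. In the whole window of 250 bases before to 50 after the start, CCGGAAG or its reverse complement occurred in 34.6% of the members' promoters and in 8.86% of all, and TATAAA or its reverse complement in 8.97% and 13.6%. The median longest run was 6 bases in the members and 4 bases in all promoters. The members thus differed in how much of a pyrimidine run their annotated start holds, and a window without one says only that these letters are not at the start that RefSeq names.

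Total counts per culture lay between 41131209 and 77699206. TMM factors, which scale each library to the bulk of its genes, lay between 0.735 and 0.848 in LPS cultures and between 0.945 and 1.18 in controls. Of 8 macrophage markers (such as Adgre1 and Csf1r) none was at 0 in any group, and their summed level lay between 5862 and 26059.7 CPM (counts scaled to the TMM-adjusted library size). At 16 h this sum lay between 18739 and 26059.7 CPM with VWF, above all controls (5862 to 17313) and all LPS cultures (9937 to 14684). Markers of T cells, erythroid cells and mast cells summed to at most 0.928 CPM in every culture. Neutrophil, B cell and dendritic cell markers reached at most 9.56, 14.2 and 29.8 CPM, and fibroblast markers ranged from 16.5 to 386 CPM. Their part in the results was not tested.

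Reads on the 86 genes made up a large and variable part of each library. In controls at 3.5 h they took 7.32%, 7.21%, 7.67%, 4.74% and 5.86% of all counts, and with VWF at 3.5 h 5.18%, 6.48%, 7.23%, 6.97% and 4.45%. With LPS at 3.5 h the shares were 8.17%, 5.84%, 6.88% and 7.31%, which overlap both other groups. At 16 h they were 6.54%, 5.64%, 6.48%, 5.95% and 11.6% in controls and 6.45%, 6.30%, 5.13%, 8.15% and 6.37% with VWF. With LPS at 16 h they were 2.97%, 3.52%, 2.70% and 5.31%, a mean of 3.63% ± 1.18 (SD, n = 4) against 7.24% ± 2.46 (SD, n = 5) in controls. All 4 LPS cultures at 16 h lay below all 5 controls of that time, and against VWF at 16 h a single pair overlapped, LPS replicate 4 at 5.31% and VWF replicate 3 at 5.13%. Shares are descriptions and were not tested, and in bulk RNA fewer cells of a type and less RNA per cell cannot be told apart. Counts on small subunit genes divided by counts on large subunit genes lay between 0.739 ± 0.0347 and 0.795 ± 0.0423 (SD) in the group means.

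**Figure D1:**
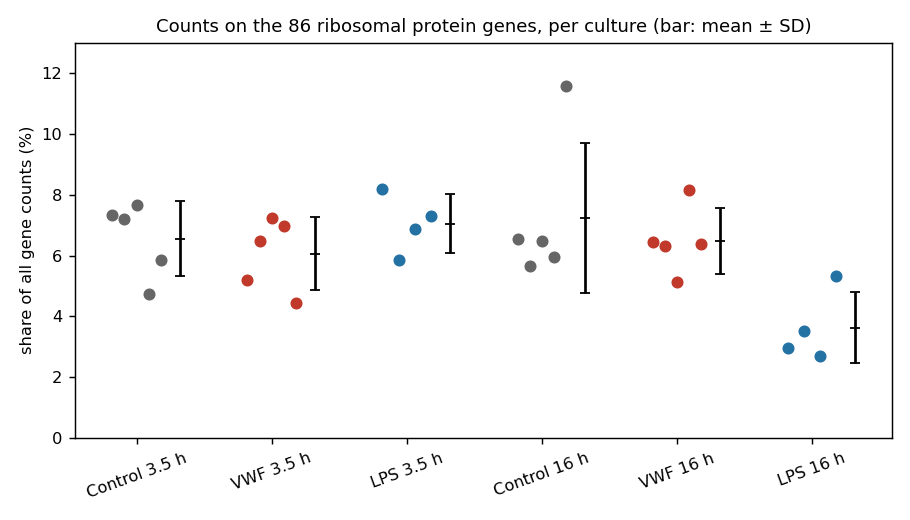
Share of all gene counts in each culture that fell on the 86 cytosolic ribosomal protein genes (vertical axis, percent), by group, with the mean and SD beside the points (n = 5, or 4 for LPS). LPS cultures at 16 h have the lowest mean, 3.63%, and control replicate 5 at 16 h stands apart at 11.6%.

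2 cultures stood apart. Against the median of the other cultures of its group, control replicate 5 at 16 h had the members higher by a median log2 difference of 0.96, with single members between -0.57 and 2.67, and LPS replicate 4 at 16 h had them higher by 0.86. These deviations ran through the members in nearly the same order, with a Pearson r of 0.95 over 81 members between these cultures, given as a description. Within groups the members moved as a block: over the 28 cultures, the deviations of 2 members from their group means had a median r of 0.94.

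The block was wider than the ribosome. The 984 other expressed genes with a median transcript length under 900 bases deviated in the same direction as the members in 25 of the 28 cultures, by 0.70 in control replicate 5 and 0.57 in LPS replicate 4 at 16 h, while the 7796 longer genes deviated by at most 0.13. The members' median transcript length was 772.5 bases. How far transcript length contributes to the values below was not tested, and values with an offset for transcript length fitted on genes outside the list are given where they differ.

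**Figure D2:**
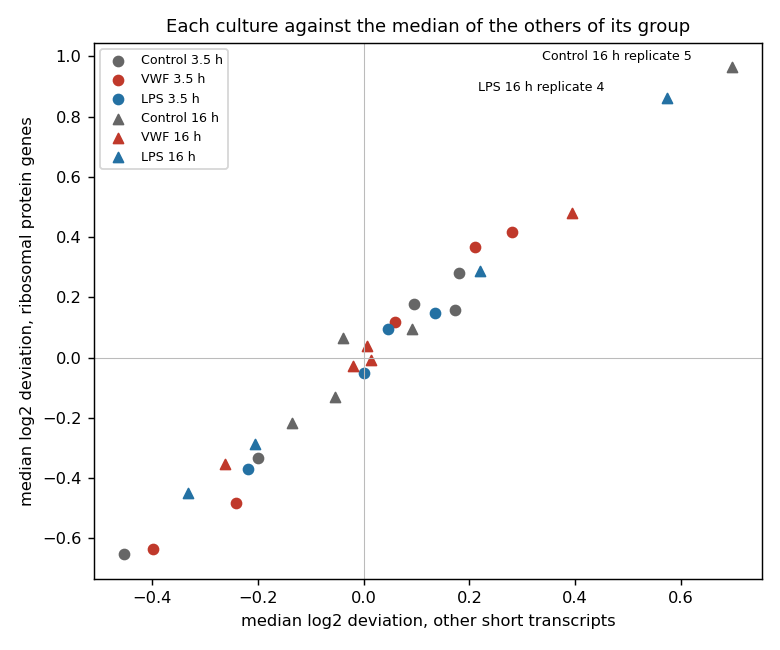
Median log2 deviation of each of the 28 cultures from the median of the other cultures of its group, for other genes with short transcripts (horizontal axis) and for the ribosomal protein genes (vertical axis). Control replicate 5 and LPS replicate 4 at 16 h lie farthest to the upper right, at 0.96 and 0.86 for the ribosomal protein genes.

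Levels between genes are compared per exon length, as TPM (counts per exon length, scaled to the same sum in each culture). Exon length is the union of a gene's annotated exons, which can far exceed its median transcript length. It was 6256 against 525 bases for Rps24, ranked 58 at 629 TPM, but 499 against 499 for Rplp1. The order and the level classes below depend on that choice, and levels per transcript length were not computed. Averaged over the 6 group means, 41 members were above 1000 TPM, 34 between 100 and 1000 and 11 below 100. Rplp1, an acidic protein of the stalk that recruits elongation factors, was highest at 11592 TPM, and Rpl41, the smallest protein of the large subunit, followed at 3284 TPM and Rps15 of the small subunit at 3269 TPM, a difference smaller than either gene's range over groups. The low end held paralogues and genes whose exons overlap another annotated gene.

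5 members never reached the filter of 10 TPM in 1 culture of a comparison: Rpl3l, Rpl24, Rpl10l, Rpl36al and Rps10. Rpl10l, a retrogene active in the germ line, had 0 counts in all 28 cultures, and Rpl3l, the paralogue of striated muscle, stayed at or below 0.793 CPM. Rpl24, Rps10 and Rpl36al each overlap on the same strand, over 47.0%, 20.6% and 24.5% of their exon length, an annotated gene listed at 0 counts (Gm28037, RPS10-NUDT3 and Gm49383). Rpl13a overlaps such a gene, Gm45713, over 29.4% and reached 23.7 TPM on average. Whether reads shared by overlapping genes were left uncounted is not given in the sources used here, so the levels of these 4 genes are uncertain. In all, 81 members were tested, 80 of them in every comparison.

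The first comparison asked how an early response to LPS changes these genes. With TMM scaling, 75 of 81 tested members were higher with LPS than in control cultures and none was lower, by edgeR's quasi-likelihood test at an adjusted p of 0.05. Of all 8190 genes tested, 31.8% were called higher and 33.9% lower. None of the members passed a log2 fold change of 1, which 12.8% of all genes did. The members' median log2 fold change was 0.60 (quartiles 0.46 and 0.70) against -0.02 over all genes. DESeq2 called 76 higher and none lower, and no lower member had an unadjusted p under 0.05. All 32 small subunit members and 43 of 47 large subunit members were called higher, with medians of 0.65 and 0.58.

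The direction of that result depended on the scaling. On library size alone, the median over all genes shifted to -0.54 and the members' median to 0.09, so that 0 members were called higher and 6 lower, among them Rpl7l1, Rpl13a, Rpl3 and Rpl10. That scaling called 14.6% of all genes higher and 62% lower. Relative to the median of all genes the members stood higher by 0.62 with TMM and by 0.63 with library size. With the offset for transcript length, 25 members were called higher and 5 lower, and the difference from the median of all genes was 0.31. The offset called 26.2% of all genes higher and 43.2% lower. Other genes with short transcripts had a median log2 fold change of 0.41 in this comparison, against -0.07 for longer ones.

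The members with the largest changes among those whose groups did not overlap were Rpl37a, Rpl41 and Rps14. Rpl37a, a zinc-binding protein of the large subunit, measured 998, 946, 1095, 461 and 637 CPM in controls and 2035, 1118, 1539 and 1595 CPM with LPS at 3.5 h. Every LPS culture lay above every control, and the log2 fold change was 0.94 ± 0.26 (SE, edgeR adjusted p = 0.00766). Rpl41 measured 1335, 1241, 1382, 690.4 and 952 CPM in controls and 2741, 1471, 2114 and 2123 CPM with LPS. Its groups did not overlap either, with a log2 fold change of 0.93 ± 0.23 (SE, edgeR adjusted p = 0.00407). Rps14, a small subunit protein that lines the platform near the mRNA exit, measured 1113, 1191, 1292, 633 and 799 CPM in controls and 2179.5, 1378, 1852 and 2004 CPM in LPS cultures. The groups did not overlap, at 0.90 ± 0.22 on the log2 scale (SE, edgeR adjusted p = 0.00385). With library size scaling their differences were 0.43, 0.42 and 0.39 and none of the 3 was called.

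6 tested members were not called: Rpl3, Rpl4, Rpl13a, Rpl39l, Rpl7l1 and Rps19bp1. Rpl3, which shapes the peptidyl transferase centre, had a log2 fold change of 0.25 ± 0.11 (SE), and Rpl4, which lines the exit tunnel, 0.12 ± 0.09 (SE). Rpl7l1, a paralogue of Rpl7 found on assembling particles, was the single member with a negative value, -0.18 ± 0.09 (SE).

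Later in the response the order was the opposite: 16 of 81 tested members were lower with LPS than in controls and none was higher, with 26.4% of all 7994 genes called lower and 27.3% higher. The share of members called was thus below the share of all genes, although 78 of the 81 had a negative value and the members' median log2 fold change was -0.49 against -0.03 over all genes. DESeq2 called 28 lower and none higher, and no higher member had an unadjusted p under 0.05. In all, 2 members passed a log2 fold change of -1, Rpl10a and Rpl3 (12.4% of all genes did).

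The 2 cultures that stood apart lie in these groups. Without LPS replicate 4, 39 members were called lower, and without both it and control replicate 5, an alternative added after the data had been seen, 59 were lower and 1, Rps24, was higher (Rps24 is named because of that call, after its values were seen), with a median of -0.43. With library size scaling 65 were called lower (median -1.01, all genes -0.57), with the offset for transcript length 52 and with all groups in one fit 44. Among all genes, 52.2% were lower with library size scaling and 36% with the offset. Other short transcripts had a median of -0.19 and longer ones 0.00.

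Rpl10a, a protein of the L1 stalk that helps release spent tRNA, changed most. In controls at 16 h it measured 552, 498, 606, 541 and 799.5 CPM, and with LPS 218, 247, 196 and 301 CPM. The groups were far apart, with a log2 fold change of -1.28 ± 0.18 (SE, edgeR adjusted p = 0.000263). Rpl3 measured 786, 759, 846, 801 and 1211 CPM in controls and 349, 363, 304 and 463 CPM with LPS. Its groups did not overlap, and the log2 fold change was -1.21 ± 0.19 (SE, edgeR adjusted p = 0.000421). Rpl13a, which in activated macrophages can leave the ribosome and silence inflammatory mRNAs, measured 20.3, 15.6, 19.7, 17.1 and 29.0 CPM in controls and 9.38, 10.1, 7.84 and 14.6 CPM with LPS. Its log2 fold change was -0.92 ± 0.24 (SE, edgeR adjusted p = 0.00936), at the low and uncertain level described above.

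Rps6, the substrate of S6 kinase in the small subunit, measured 628, 586, 689, 612 and 555 CPM in controls and 418, 426, 401 and 438 CPM with LPS. Neither of the divergent cultures stood out for this gene, and the log2 fold change was -0.51 ± 0.10 (SE, edgeR adjusted p = 0.00151). Rpl5, which binds 5S rRNA and, with Rpl11, inhibits Mdm2, measured 636, 579, 704, 611 and 780.2 CPM in controls and 362, 403, 337 and 469 CPM in LPS cultures. The groups did not overlap, at -0.72 ± 0.14 on the log2 scale (SE, edgeR adjusted p = 0.00183). Its partner Rpl11 had -0.48 ± 0.23 (SE) and was not called (edgeR adjusted p = 0.105). Rpl10, which completes the tRNA sites late in assembly, fell by 0.53 on the log2 scale (SE 0.10, edgeR adjusted p = 0.00105). Rpl10a, Rpl3, Rpl5, Rps6 and Rpl10 each kept their direction and call under all 19 alternatives.

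Large differences with a wide spread were not called. Rpsa, the laminin receptor protein of the small subunit, measured 2147, 1857, 2188, 1882 and 7632 CPM in controls and 923, 1133, 771 and 2509 CPM with LPS. LPS replicate 4 lay above 4 of the 5 controls, and the log2 fold change was -1.20 ± 0.55 (SE, edgeR adjusted p = 0.0974). Rps24 measured 1214, 1017, 1236, 1045 and 3083 CPM in controls and 1442, 1877, 1189 and 3420.1 CPM in LPS cultures. They overlapped, at 0.42 ± 0.43 on the log2 scale (SE, edgeR adjusted p = 0.435).

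**Figure D3:**
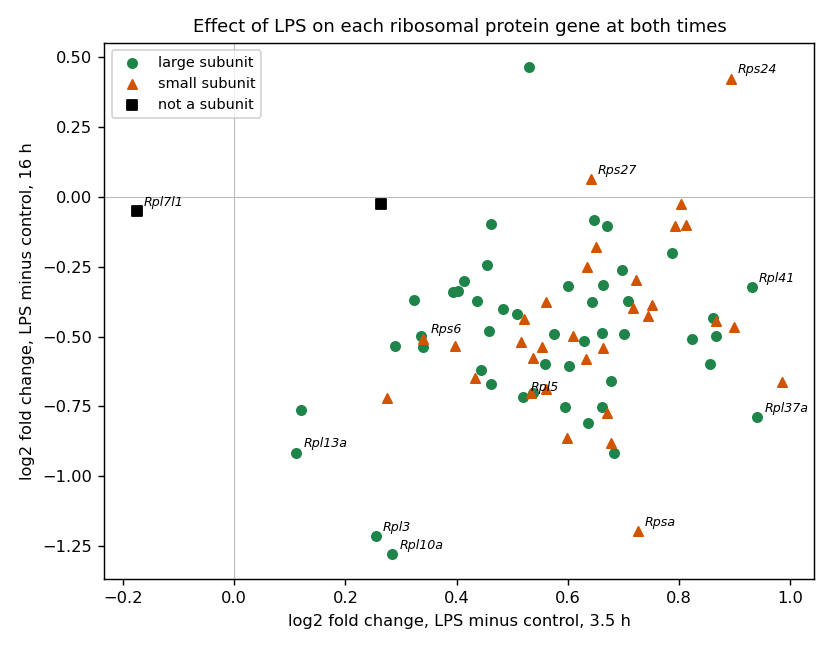
Log2 fold change of LPS against control for each of the 81 tested members at 3.5 h (horizontal axis) and at 16 h (vertical axis), by subunit. Most members, 77, lie to the right of 0 at 3.5 h and below 0 at 16 h; Rpl10a and Rpl3 are lowest and Rps24 among the highest at 16 h.

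Of the members tested at both times, 77 had a positive value at 3.5 h and a negative value at 16 h. Those comparisons use different cultures throughout. The 13 members called higher at 3.5 h and lower at 16 h are 17.3% of the 75 higher and 81.3% of the 16 lower. The other 3 that were lower at 16 h, Rpl3, Rpl4 and Rpl13a, were not called at 3.5 h.

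The change of the LPS effect with time was tested as an interaction. It was negative and called for 55 of 81 members, with 23.8% of all 8748 genes called lower and 25.0% higher, and positive and called for none, where no member had an unadjusted p under 0.05 and DESeq2 called none. 32 of them passed a log2 difference of -1, which 12.8% of all genes did. The members' median was -1.06, against 0.00 over all genes. It was -1.08 with library size scaling (70 called) and -0.82 with the offset for transcript length (65 called), and leaving out 1 culture at a time gave between 41 and 76 called. Library size scaling called 25.1% of all genes lower and the offset 27.1%. The largest called difference was that of Rpsa, -1.92 ± 0.60 (SE, edgeR adjusted p = 0.0147). Rpl10a had -1.55 ± 0.21 (SE, edgeR adjusted p = 1.25e-05), Rpl3 -1.46 ± 0.21 (SE, edgeR adjusted p = 2.39e-05) and Rpl5 -1.23 ± 0.19 (SE, edgeR adjusted p = 4.26e-05). Rpl7l1 had the only positive value, 0.14 ± 0.11 (SE).

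Between the LPS groups alone, 63 of 81 members were lower at 16 h than at 3.5 h and none was higher, with 29.1% of all 6987 genes called lower and 31.7% higher. No member was higher at an unadjusted p under 0.05 or by DESeq2. 28 passed a log2 fold change of -1, against 13.5% of all genes, and the members' median was -0.95 against 0.04. Library size scaling gave a median of -1.03 and the offset for transcript length -0.95, each with 72 members lower. Among all genes, 31.4% and 32.6% were lower under these settings. Rpl10a went from 793, 652, 752 and 810.2 CPM to 218, 247, 196 and 301 CPM, and Rpl3 from 1090.2, 961, 1051 and 1170.0 CPM to 349, 363, 304 and 463 CPM. For both, the groups lay well apart, with log2 fold changes of -1.62 ± 0.15 and -1.50 ± 0.14 (SE). Rps24 at -0.11 and Rpl7l1 at -0.08 had the values nearest 0. Other short transcripts had a median of -0.11.

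**Figure D4:**
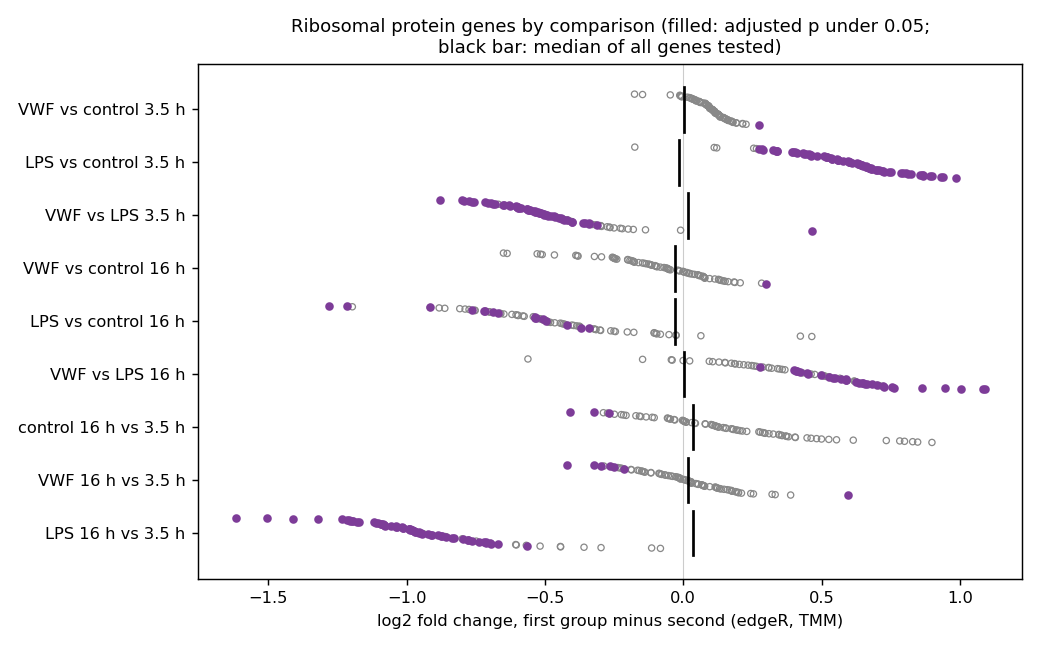
Log2 fold change of each tested member (points) in 9 comparisons, first group minus second, filled where the edgeR adjusted p was under 0.05; the black bar is the median of all genes tested. The members lie right of the bar for LPS against control at 3.5 h (75 filled), left of it for LPS against control at 16 h (16 filled) and closer to it for VWF against control (1 filled at each time), where 73 of 81 lie right of it at 3.5 h and 36 at 16 h.

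Against controls, 1 member was called for VWF at each time. At 3.5 h, 1 of 81 members was higher and none lower, with 22.8% and 20.8% of all 8200 genes called higher and lower. At 16 h again 1 was higher and none lower, with 13.1% and 14.7% of all 7798 genes. No lower member had an unadjusted p under 0.05 at 3.5 h, 1 had at 16 h, and DESeq2 called none lower. The members' median log2 fold change was 0.10 at 3.5 h (range -0.18 to 0.27, median SE 0.19) and -0.06 at 16 h (range -0.65 to 0.30, median SE 0.22), against 0.00 and -0.03 over all genes. At 3.5 h 73 of the 81 lay above the median of all genes, with library size scaling too, and at 16 h 36 did. Library size scaling called none higher and called Rpl13a and Rpl10a lower at 3.5 h (-0.40 and -0.27) and Rpl10a lower at 16 h (-0.36). The offset for transcript length called Rpl13a, Rpl10a and Rpl28 lower and none higher at 3.5 h, and Rpl22l1 (-0.64) and Rpl10a (-0.39) lower at 16 h beside the 1 higher. The interaction of VWF with time called none of the 81 in either direction (15.0% of all 8660 genes were called higher and 17.4% lower), none had an unadjusted p under 0.05, and DESeq2 called none; the members' median was -0.16 (median SE 0.31). These tests do not show that VWF left the genes alike. A difference of the size of these errors is too small for them to call, and values down to -0.65 at 16 h were not called.

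The member called at both times was Rpl7l1. At 3.5 h it measured 102, 117, 124, 111 and 125 CPM in controls and 126, 137, 147, 138 and 138 CPM with VWF. At 16 h it measured 105, 102, 96.5, 95.7 and 98.3 CPM in controls and 129, 126, 119, 129 and 113 CPM with VWF. Every VWF culture was above every control of its time. The log2 fold changes were 0.27 ± 0.07 (SE, edgeR adjusted p = 0.00769) and 0.30 ± 0.07 (SE, edgeR adjusted p = 0.00732). With library size scaling neither was called, at 0.05 and 0.24, and with the offset for transcript length the value at 3.5 h was 0.13 and not called. LPS cultures measured 92.0, 100.3, 102 and 110.1 CPM at 3.5 h and 87.4, 93.5, 93.3 and 100.3 CPM at 16 h, below VWF at both times. VWF against LPS gave 0.46 ± 0.07 and 0.40 ± 0.07 (SE, edgeR adjusted p = 0.000502 and 0.000934).

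**Figure D5:**
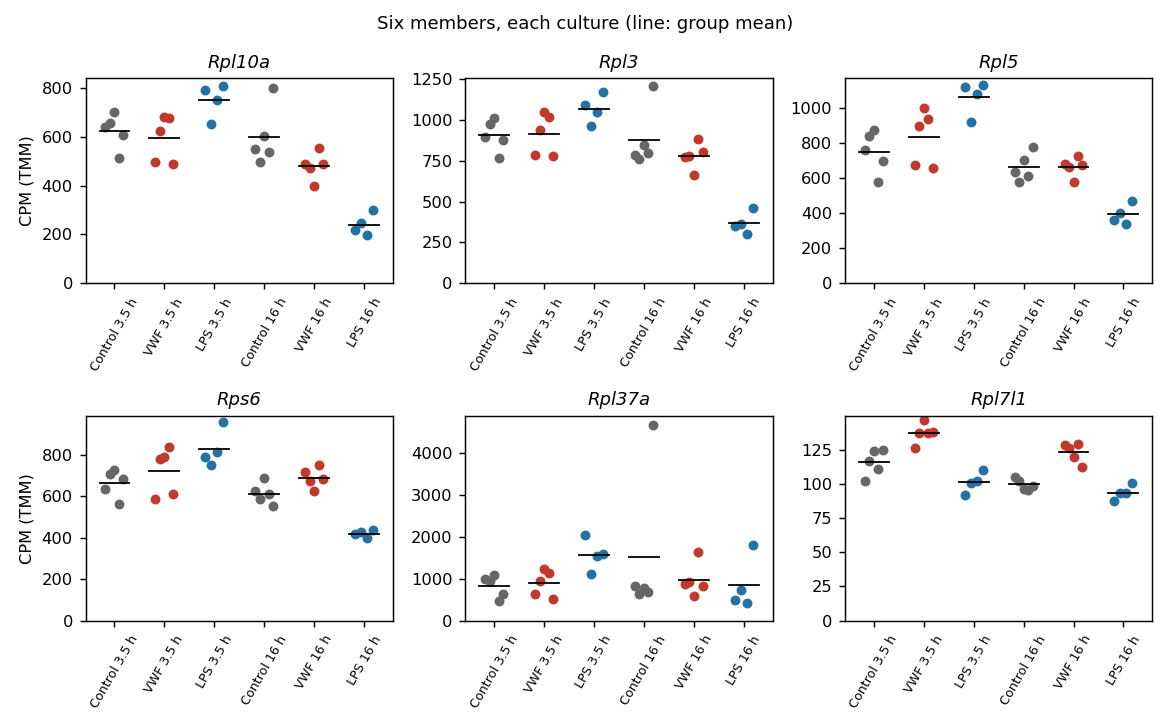
CPM with TMM scaling (vertical axis, from 0) of 6 members in each culture, by group, with the group mean as a line. Rpl10a, Rpl3, Rpl5 and Rps6 are lowest with LPS at 16 h, Rpl37a is drawn out by control replicate 5 (4667 CPM) and LPS replicate 4 (1793 CPM) at 16 h, and Rpl7l1 is highest with VWF at each time.

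At 3.5 h, 56 of 81 members were lower with VWF than with LPS and 1, Rpl7l1, was higher, with 24.0% and 26.3% of all 7500 genes called lower and higher. The members' median log2 fold change was -0.49 against 0.02. That count rested on few cultures: it was 3 without LPS replicate 1, 9 without LPS replicate 3 or 4, 22, 28 and 37 without VWF replicates 1, 2 and 5, and the median stayed between -0.58 and -0.42 when 1 culture was left out. Library size scaling called 2 higher and 0 lower at a median of -0.21 where all genes had 0.30, and the offset for transcript length 2 higher and 10 lower. Among all genes, library size scaling called 50.1% higher and 11.9% lower, and the offset 29.5% and 22.2%. Other short transcripts had a median of -0.40 in this comparison.

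At 16 h, 32 of 80 members were higher with VWF than with LPS and none was lower, with 29.5% of all 7574 genes called higher and 31.0% lower. No lower member had an unadjusted p under 0.05 and DESeq2 called none. The members' median was 0.47 against 0.00, and 3 members, Rpl13a, Rpl3 and Rpl10a, passed a log2 fold change of 1 (11.1% of all genes). The labels give no pairing of cultures. Same-numbered cultures had r between 0.18 and 0.84 in this comparison, but -0.76 for replicate 4 of LPS against control at 16 h. With a block on the replicate numbers, a choice made from these data, 68 members were higher and 1, Rps24, lower. Without LPS replicate 4 the count was 66, and without LPS replicate 1 it was 20. Rpl13a had 1.09 ± 0.18 (SE, edgeR adjusted p = 0.000515), Rpl3 1.08 ± 0.14 (SE, edgeR adjusted p = 7.52e-05) and Rpl10a 1.01 ± 0.14 (SE, edgeR adjusted p = 0.000165). Rps6 measured 719, 672, 627, 753 and 686 CPM with VWF at 16 h, above all 4 LPS cultures, a log2 fold change of 0.72 ± 0.08 (SE, edgeR adjusted p = 4.15e-05).

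In controls 3 members, Rpl10 among them, were lower at 16 h than at 3.5 h and none was higher, with 20.2% of all 8333 genes called lower and 21.2% higher; 1 member was higher at an unadjusted p under 0.05 and DESeq2 called 1 higher. With VWF 6 members were lower and 1, Rps27l, was higher, with 33.3% and 34.8% of all 7927 genes. The medians of the members were 0.13 and 0.01. The offset for transcript length called 20 members lower in controls and 40 with VWF, where 18.3% and 31.3% of all genes were lower. Other short transcripts had medians of 0.36 and 0.33 here, above the members. Rpl10 fell in both, from 1352, 1495, 1612, 1199 and 1315 to 1022, 999.5, 1134, 1059.7 and 996 CPM in controls and by 0.42 on the log2 scale with VWF (SE 0.10, edgeR adjusted p = 0.00402). The control groups of Rpl10 did not overlap, with a log2 fold change of -0.41 ± 0.10 (SE, edgeR adjusted p = 0.00648).

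The stalk proteins show the range of spread among members. Rplp0, the base of the stalk, measured 1658, 1594, 1728, 1589 and 2286 CPM in controls and 1275, 1387, 1086 and 1579.8 CPM with LPS at 16 h. Its log2 fold changes were 0.44 ± 0.12 with LPS at 3.5 h (SE, edgeR adjusted p = 0.00839) and -0.37 ± 0.16 at 16 h (SE, edgeR adjusted p = 0.0775). Rplp1 measured 1981, 1495, 1614, 1667 and 8302 CPM in the same controls and 1260.4, 1831, 959 and 4627 CPM with LPS. In each group 1 culture lay far above the rest, and the 16 h values of Rplp1 and Rplp2, of -0.43 ± 0.67 and -0.50 ± 0.67 (SE), were not called. The members that were high in control replicate 5 were also those with large changes for LPS at 3.5 h: over 81 members, Pearson's r between the deviation of that culture and the log2 fold change was 0.79, given as a description of genes that share libraries.

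Paralogues were compared with their partners per exon length. Rps27l and Rps27 have 816 and 1043 exon bases but median transcript lengths of 537 and 345. Rpl22l1 and Rpl22 have 1989 and 2911 exon bases but transcript lengths of 538.5 and 2048. The size of each percentage depends on that choice of length, so it is read between groups only. Rps27l, a p53 target, stood at 34.8% ± 3.87 of Rps27 in controls at 3.5 h and 56.9% ± 3.79 at 16 h (SD, n = 5), and at 34.5% ± 1.86 and 59.5% ± 4.47 with VWF (SD, n = 5). With LPS it was 31.6% ± 2.83 at 3.5 h and 38.1% ± 4.06 at 16 h (SD, n = 4), and the LPS cultures at 16 h, all between 33.1% and 42.4%, lay below every control and VWF culture of that time (53.4% to 64.7%). These ratios were not tested. For Rps27l itself the rise from 3.5 h to 16 h was called with VWF (log2 fold change 0.59 ± 0.15, SE, edgeR adjusted p = 0.00464) and missed the threshold in controls (0.48 ± 0.19, SE, edgeR adjusted p = 0.0679), and it fell with LPS (-0.57 ± 0.22, SE, edgeR adjusted p = 0.0484), a call lost in 7 of 17 alternatives, the replicate block and the omission of LPS replicate 1, 3 or 4 at 3.5 h or 1, 2 or 3 at 16 h (adjusted p between 0.051 and 0.124 in edgeR). The difference of the LPS effect between times was -1.03 ± 0.30 (SE, edgeR adjusted p = 0.0098).

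Rps27rt is a retrogene copy of Rps27, and 89.5% of its 100-base windows also occur in another gene. Around the annotated starts both hold the same 38 bases, of which the part inside the printed window is in capitals (Rps27 at chr3:90213629-90213678 and Rps27rt at chr9:114982720-114982769, both minus strand, RefSeq on GRCm38.p6).
Rps27: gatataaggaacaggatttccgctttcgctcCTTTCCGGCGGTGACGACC
Rps27rt: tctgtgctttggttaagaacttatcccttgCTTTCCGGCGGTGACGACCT
Rps27rt had group means between 4.76 and 8.61 CPM where Rps27 had between 393 and 726 CPM, and its values are uncertain because reads of the copies cannot be told apart in the shared windows. Rpl36 shared 55.3% of its windows with other genes, and 78 of the 86 members shared at least 1 window. Adding the counts of the -ps rows to their parents moved no count of called members by more than 1.5 times. Those rows held at most 0.0382% of a culture's counts, so adding them could hardly move a count. Copies with other names were not added, among them Gm10076, which shares windows with Rpl41. It had 385996 counts over all cultures where Rpl41 had 2270950, and the part of such copies was not tested.

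Rpl22l1, a paralogue of Rpl22 that can replace it, stood at 13.6% ± 1.23 of Rpl22 in controls, 13.1% ± 1.56 with VWF and 14.4% ± 1.10 with LPS at 3.5 h, and at 15.4% ± 2.19, 10.4% ± 1.63 and 12.8% ± 2.51 in controls, VWF and LPS at 16 h (SD). At 16 h the VWF cultures (8.49% to 12.6%) lay below all controls (13.7% to 18.2%), and the LPS cultures (10.1% to 16.0%) overlapped both. These ratios were not tested. Rpl39l, the testis paralogue of Rpl39, stayed between 0.871% and 1.6% of Rpl39 in the group means. Rps19bp1, a nucleolar partner of Rps19, was called in none of the comparisons, with log2 fold changes between -0.30 and 0.26.

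The wider machinery was read from lists chosen by function, whose counts stand against 31.8% of all genes higher and 33.9% lower with LPS at 3.5 h and 27.3% and 26.4% at 16 h. Among ribosomal proteins whose names fall outside the rule, Fau (Rps30) and Rack1 were higher with LPS at 3.5 h, by 0.82 ± 0.22 and 0.47 ± 0.12 on the log2 scale (SE), and Rack1 was lower at 16 h by -0.72 ± 0.18 (SE, edgeR adjusted p = 0.00628). Elongation factors carry tRNA to the ribosome and move it along the mRNA. The list read here is wider and also holds Btf3, Etf1, Gspt1, Tpt1 and Eef1e1, which are not elongation factors in that sense. Of its 13 tested genes, 10 were higher and none lower with LPS at 3.5 h, where Btf3 had 0.90 ± 0.15 and Eef1b2 0.65 ± 0.17 (SE). At 16 h 5 were lower, led by Eef1d at -1.03 ± 0.13, Eef2 at -0.86 ± 0.32 and Eef1e1 at -0.81 ± 0.31 (SE), and 1 was higher. Their median was 0.46 and then -0.50.

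Ribosome assembly factors, which process rRNA and join proteins to it, had a negative median at both times. With LPS at 3.5 h, 27 of 49 were lower and 9 higher (median -0.34), among them Tsr1 at -2.15 ± 0.42 and Sbds, which releases Eif6 from the 60S subunit, at 2.22 ± 0.12 (SE). Eif6 was higher by 1.46 ± 0.13 (SE). At 16 h 27 of 43 assembly factors were lower and 1 higher (median -0.81), with Dkc1, the pseudouridine synthase, at -2.05 ± 0.15 and Npm1, nucleophosmin, at -1.33 ± 0.11 (SE). With VWF 8 of 49 were higher and 7 lower at 3.5 h, Sbds again higher at 1.25 ± 0.10 (SE). These shares, 16.3% and 14.3%, were below the 22.8% and 20.8% of all genes. At 16 h 5 of 43 were higher and none lower, with Bop1 at 0.61 ± 0.13 (SE). The share higher, 11.6%, was close to the 13.1% of all genes, of which 14.7% were lower. The same 43 genes had a median of 0.23.

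Of the RNA polymerase I machinery, which makes the large rRNA precursor, 7 of 16 tested genes were lower with LPS at 3.5 h and 2 higher, and 5 of 13 lower and 1 higher at 16 h. The lower shares, 43.8% and 38.5%, stand against 33.9% and 26.4% of all genes. Cd3eap was lower at both (-1.51 ± 0.14 and -0.98 ± 0.11, SE). Of 39 initiation factors tested, 18 were higher and 8 lower with LPS at 3.5 h, and of 38 at 16 h 4 were higher and 13 lower, with Pabpc4, a poly(A)-binding protein, at -1.83 ± 0.24 and Eif4b at -1.21 ± 0.13 (SE). In the list of mTOR and TOP mRNA control, 5 of 23 were higher and 14 lower with LPS at 3.5 h (median -0.47), and 6 of 20 higher and 5 lower at 16 h (median 0.12). Myc, a driver of ribosome production, was lower with LPS by -3.27 ± 0.23 at 3.5 h and -2.67 ± 0.25 at 16 h, and with VWF by -2.20 ± 0.13 and -0.95 ± 0.12 (SE). Its antagonist Mxd1 was higher with LPS by 4.63 ± 0.16 and 5.81 ± 0.24 (SE), and with VWF at 3.5 h by 2.75 ± 0.16 (SE). Mnt, another antagonist, was lower at 3.5 h, by -3.67 ± 0.22 with LPS and -2.72 ± 0.24 with VWF (SE).

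The mitochondrial ribosomal proteins are encoded by other nuclear genes and translate mitochondrial mRNAs. Of 76 tested, 25 were higher and 9 lower with LPS at 3.5 h (median 0.22), and 10 were higher and 13 lower at 16 h (median -0.22). At 3.5 h the share called higher, 32.9%, was close to the 31.8% of all genes, and at 16 h the shares, 13.2% and 17.1%, were below the 27.3% and 26.4% of all genes. For the interaction of LPS with time their median was -0.26, with 13 of 76 called lower and 4 higher, against -1.06 and 55 of 81 for the cytosolic genes. Mrpl52 was higher in each agonist comparison, by 1.31 ± 0.22 and 1.44 ± 0.32 with VWF and 1.59 ± 0.18 and 1.66 ± 0.41 with LPS (SE, at 3.5 h and 16 h). The difference between the lists was not tested.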

How the data were processed

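RNA of 28 mouse macrophage cultures in 6 groups was sequenced in bulk. The authors deposited unnormalised read counts per gene, made with STAR on GRCm38 (mm10) per the submitters' processing notes. For the counting rule, annotation release, strand setting and multi-mapped reads, nothing was stated (not given in the sources used here). Gene names, exon lengths and transcript lengths were read from GENCODE M 21. Members and lists were chosen with earlier results of these data known.

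Every fit held only the groups compared and all genes with at least 10 TPM in 1 of its cultures, with edgeR 4.0.16 (quasi-likelihood test, robust, TMM) in R 4.3.3. A gene was called at a Benjamini-Hochberg adjusted p under 0.05. Interactions with time used 4 groups in 1 fit. CPM values use TMM factors, while TPM values follow library size. Total counts ranged from 41131209 to 77699206.

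Alternatives were DESeq2 1.42.0, RLE factors, library size, TMM without the members, no expression filter, added -ps counts, a replicate block, all groups in one fit and leaving out 1 culture. An offset for transcript length and the omission of both divergent 16 h cultures were added with the data in view. The fits were tested on simulated data. Every main fit was unpaired, and the replicate block was run for each comparison as an alternative only. Replicate numbers were read as a possible pairing only for VWF against LPS at 16 h. There same-numbered cultures deviated together (r = 0.47, 0.18, 0.84 and 0.82). The labels do not give this pairing, and it was chosen from these data.

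Members named in the text were the 3 with the largest called change in each direction per agonist comparison whose groups did not overlap, and members set by role. At most 4 called genes of each other list, those with the largest change, were named per comparison. Rpl27a, Rpl35, Rpl28, Rpl4, Rps24, Rps15, Rps27rt, Rpl36 and, of the other lists, Larp1 fall outside this rule and were named after their values were seen. Some items are not reported here.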

Additional observations from a re-analysis of the deposited data

Results flagged for a closer look

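Of 168 sets of 4 or 5 cultures checked for a lone high or low culture, 20 had one, where chance gives about 1 in 20, and 18 of the 20 were control replicate 5 at 16 h. In that culture 11.6% of counts fell on the ribosomal protein genes. Its CPM was 661 for Rpl22, 78.1 for Rpl22l1, 942 for Rpl36a, 662 for Rpl39, 1211 for Rpl3, 1785 for Rps4x, 1454 for Rpl7, 2286 for Rplp0, 8302 for Rplp1 and 3636 for Rplp2. It was also 7632 for Rpsa, 1935 for Rps3, 872 for Rpl11, 2292 for Rps27a, 4667 for Rpl37a, 5001 for Rpl41 and 2954 for Rps14. VWF replicate 4 at 16 h was apart for Rpsa (3293 CPM) and Rps14 (1730.1 CPM). The values of 1 culture are not independent of each other.

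The LPS effect differed between 16 h and 3.5 h by the interaction test for 16 of the 27 tested members named by rule. Of all genes, 23.8% were called lower and 25.0% higher by that test. Some of these members were named for their LPS changes at 3.5 h or 16 h, so the count is not independent of that choice. The log2 differences were -1.92 for Rpsa, -0.80 for Rplp0, -0.81 for Rpl10, -1.24 for Rps4x, -0.95 for Rps3, -1.01 for Rpl7, -1.46 for Rpl3 and -1.23 for Rpl5. They were -0.84 for Rps6, -0.93 for Rpl11, -1.55 for Rpl10a, -1.41 for Rpl36a, -1.15 for Rpl22, -1.03 for Rps27l, -1.44 for Rpl22l1 and -1.02 for Rpl13a. The call was kept in 15 of 28 alternatives for Rpl22l1, 17 for Rpl22, 20 for Rps3 and 27 each for Rpl36a and Rpl11, and in all 28 for the others. The cause was not tested.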

How the results depend on the processing

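Counts of members called higher and lower are given in that order. With library size scaling they were 0 and 2 for VWF against control at 3.5 h, 0 and 1 at 16 h, 0 and 6 for LPS against control at 3.5 h, 0 and 65 at 16 h, 2 and 0 for VWF against LPS at 3.5 h, 64 and 0 at 16 h, and 3 and 1 for VWF over time. Of all genes, this scaling called 15.3% and 37.5% for VWF at 3.5 h and 10% and 16.1% at 16 h. For LPS it called 14.6% and 62%, then 15.3% and 52.2%. VWF against LPS gave 50.1% and 11.9%, then 52% and 17.8%, and VWF over time 39.2% and 28.1%. With the offset for transcript length they were 0 and 3, 1 and 2, 25 and 5, 0 and 52, 2 and 10, 58 and 1 for the same 6 comparisons, 0 and 20 for controls over time, 1 and 40 for VWF over time, and 1 and 1 for the interaction of VWF with time. Of all genes, the offset called 20.8% and 34.5% for VWF at 3.5 h and 13.5% and 17.3% at 16 h. For LPS it called 26.2% and 43.2%, then 24.2% and 36%. VWF against LPS gave 29.5% and 22.2%, then 37.5% and 29.2%. Over time the offset called 22.8% and 18.3% in controls, 39.7% and 31.3% with VWF, and 19.7% and 18.1% for the VWF interaction. With all groups in one fit, LPS against control gave 45 and 1 at 3.5 h and 44 lower at 16 h, VWF against LPS at 3.5 h 18 lower, and controls over time 1 and 7. With the replicate block, VWF against LPS gave 14 lower at 3.5 h and 68 and 1 at 16 h (72 and 1 with the transcript length offset as well), controls over time 1 lower, VWF over time 2 and 1, and the interaction of LPS with time 33 lower. DESeq2 called 28 lower for LPS at 16 h and 1 and 7 for controls over time, where RLE factors gave 5 lower. Without the expression filter, 2 were higher for VWF against control and 2 for VWF against LPS at 3.5 h, 1 lower for LPS against control at 3.5 h, and 1 higher for controls over time. Without both divergent cultures, LPS at 16 h gave 1 and 59. Single members reversed for LPS at 3.5 h with library size: Rpl3 -0.26, Rpl10 -0.23, Rplp0 -0.081, Rps6 -0.18, Rpl11 -0.058, Rpl13a -0.40 and Rpl10a -0.23. With the transcript length offset they were Rpl10 -0.18, Rps19bp1 -0.20, Rps6 -0.13, Rpl13a -0.36 and Rpl10a -0.21. Rps27 reversed for LPS at 16 h with library size (-0.48). With the transcript length offset Rps19bp1 reversed for VWF against LPS at 3.5 h (0.20) and in controls over time (-0.25), as did Rpl13a in controls (-0.27) and Rpl39 with VWF over time (-0.22). The cause was not tested.

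Leaving out 1 culture at a time, the higher count ranged from 1 to 3 for VWF against control at 16 h (3 without control replicate 5) and from 53 to 77 for LPS at 3.5 h, with 0 to 1 lower (1 without control replicate 1). For LPS at 16 h the lower count ranged from 13 to 39 (39 without LPS replicate 4) and the higher from 0 to 1 (1 without control replicate 5). For VWF against LPS the lower count at 3.5 h ranged from 3 to 68, and at 16 h the higher from 20 to 66 and the lower from 0 to 1 (1 without LPS replicate 3). Over time the lower count ranged from 1 to 6 in controls, from 1 to 8 with VWF (1 to 2 higher) and from 49 to 79 with LPS, and for the interaction of LPS with time from 41 to 76. The median log2 fold change ranged from -0.02 to 0.19 and -0.20 to 0.21 for VWF against control at 3.5 h and 16 h, from 0.50 to 0.69 and -0.75 to -0.23 for LPS, from -0.13 to 0.22 in controls and -0.12 to 0.10 with VWF over time, and from -0.29 to 0.12 for the interaction of VWF with time. Of 6025 values of single named members under an alternative, 5514 stayed on the same side of the threshold. That number includes values called in neither fit, whatever their sign. Another 275 lost a call, 219 gained one, and 17 changed sign with a call in at least 1 fit.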
